A study of Mus musculus with 8 samples.

Results

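The sirtuin family was followed in haematopoietic stem cells (HSCs) of mouse bone marrow, in mice with a conditional deletion of Nynrin and in controls. Its 7 genes, Sirt1 to Sirt7, were found by symbol among the 55401 gene records of a count table, with 1 record each. HSCs are rare self-renewing marrow cells from which every blood lineage descends. The Nynrin CKO group (Nynrinfl/flTie2-Cre, 4 libraries) carried floxed Nynrin and Cre recombinase under the Tie2 promoter, which works in endothelial and in blood cells. The control group (Nynrinfl/fl, 4 libraries) carried the floxed alleles without Cre and is labelled wild type. All mice were C57BL/6 and 8 weeks old, and about 3000 HSCs were sorted per sample, with no sort markers named in the sources used here. Cre was present in 1 group only, so an effect of Cre and an effect of Nynrin loss cannot be told apart. Whether every library had a mouse of its own is not said in the labels, so that the p-values reflect the spread among these libraries, part of which may be technical.

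Sirtuins are enzymes that remove acetyl and other acyl groups from lysines of proteins and use up NAD in doing so, which ties their activity to the metabolic state of the cell. Sirt3, Sirt4 and Sirt5 work in mitochondria, Sirt1, Sirt6 and Sirt7 mainly in the nucleus, and Sirt2 mainly in the cytosol. In HSCs, Sirt3, Sirt7 and Sirt2 have been studied for protection against oxidative stress, for restraint of the mitochondrial protein-folding stress response and for restraint of the NLRP3 inflammasome, and Sirt1 and Sirt6 for maintenance of the stem cell pool. The series title places Nynrin in the control of the mitochondrial permeability transition pore. Its matrix regulator, cyclophilin D (gene Ppif), is a reported substrate of Sirt3.

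Deposited gene counts summed to 36942835 to 56437299 per library. Nynrin itself was at 30.1 to 47.5 CPM (read counts relative to library size, scaled by TMM factors) in controls and at 8.22 to 12.7 CPM in Nynrin CKO. All 15 HSC marker genes listed, among them Slamf1 and Procr, were detected, with summed levels of 4363 to 5078 CPM in controls and 4791 to 5919 CPM in Nynrin CKO. Libraries differed in ways the groups do not explain. In control 4 and in Nynrin CKO 3 and 4 between 28914 and 31344 genes had reads, and olfactory and vomeronasal receptor genes took 142 to 225 unscaled CPM. The other 5 libraries had reads on 40240 to 44562 genes, with 891 to 1670 CPM on receptor genes. The 2 sets are called the libraries with few and with more receptor reads. Nynrin CKO 1 and 2 were close to each other, as were 3 and 4. Controls 3 and 4 had high Xist, with 177719 and 224087 counts, against 245 to 471 in the rest. No Nynrin CKO library had high Xist, so that it was unbalanced between the groups. Marker lists of several blood lineages had higher sums in Nynrin CKO, which does not show how mature the cells were. The 14 neutrophil genes summed to 209 to 372 CPM in controls and to 492 to 4151 CPM in Nynrin CKO, 4 of them rose, and none of these genes was at 0. Mpo alone held 2829 and 2824 CPM in Nynrin CKO 3 and 4. All 14 log2 fold changes were positive, but for Lcn2 and Mmp8 the groups overlapped. The 10 erythroid genes summed to 1124 to 1435 CPM in controls and 2112 to 2468 CPM in Nynrin CKO, with 3 that rose. Most of that sum was Car2, at 965 to 1281 CPM in controls and 1909 to 2181 CPM in Nynrin CKO. Of the 10 log2 fold changes 9 were positive, and Slc4a1 stood at -1.03 without passing. Of the 8 endothelial genes 1 rose, Tek, the gene for Tie2 whose promoter drives the Cre, with 25.2 to 42.5 CPM in controls and 145 to 163 CPM in Nynrin CKO. The other 7, among them Pecam1, Cdh5 and Kdr, did not pass. Sums for macrophage, B cell and T and NK cell genes did not overlap between groups, while those for mast cell and megakaryocyte genes did. Of the 9 mast cell and basophil genes 2 nonetheless rose, Cpa3 and Hdc. Most of their sum in controls was Gata2, at 67.8 to 109 CPM, which did not pass. The part of these markers in the results below was not tested.

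Sirt3 was the 1 sirtuin that passed the test, and it rose in Nynrin CKO. All 7 genes had positive log2 fold changes (44.5% of all tested genes did, and 57.1% of those averaging 1 CPM or more), from 0.21 for Sirt5 to 0.76 for Sirt3, with a median of 0.54. The median of all 27573 tested genes was -0.09, and that of the 16789 averaging 1 CPM or more was 0.09. Among the latter, log2 fold changes were lower for longer transcripts, from a median log2 fold change of 0.38 in the shortest of 5 equal groups to -0.17 in the longest. Sirt2, Sirt4, Sirt5 and Sirt6 belong to a group with a median of 0.23, which Sirt5 did not exceed, Sirt3 and Sirt7 to one at 0.08 and Sirt1 to one at -0.08. With a trend over length and GC taken out, the sirtuin median was 0.37 in place of 0.54. In edgeR's quasi-likelihood test, with Benjamini-Hochberg adjustment over all tested genes and a threshold of 0.05, 1 of 7 sirtuins was called higher and none lower, where 2.80% of all tested genes were called, 2.22% higher and 0.588% lower. Among genes averaging 1 CPM or more 3.64% were called higher. Without adjustment 5 of 7 had p under 0.05, against 18.9% of all tested genes, and all 5 were higher, against 13.2%. Sirt2, Sirt3, Sirt4 and Sirt7 lay above every control in all 4 Nynrin CKO libraries, which 9.52% of tested genes did. None lay below every control, where 4.83% of tested genes did, so that groups were apart for 14.3% of genes in either direction. The shares for unadjusted p and for groups apart were not taken among genes averaging 1 CPM or more, to which all 7 sirtuins belong. Fewer cells of a type and less RNA per cell cannot be told apart in these bulk libraries. All 7 passed the filter on low counts.

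**Figure D1:**
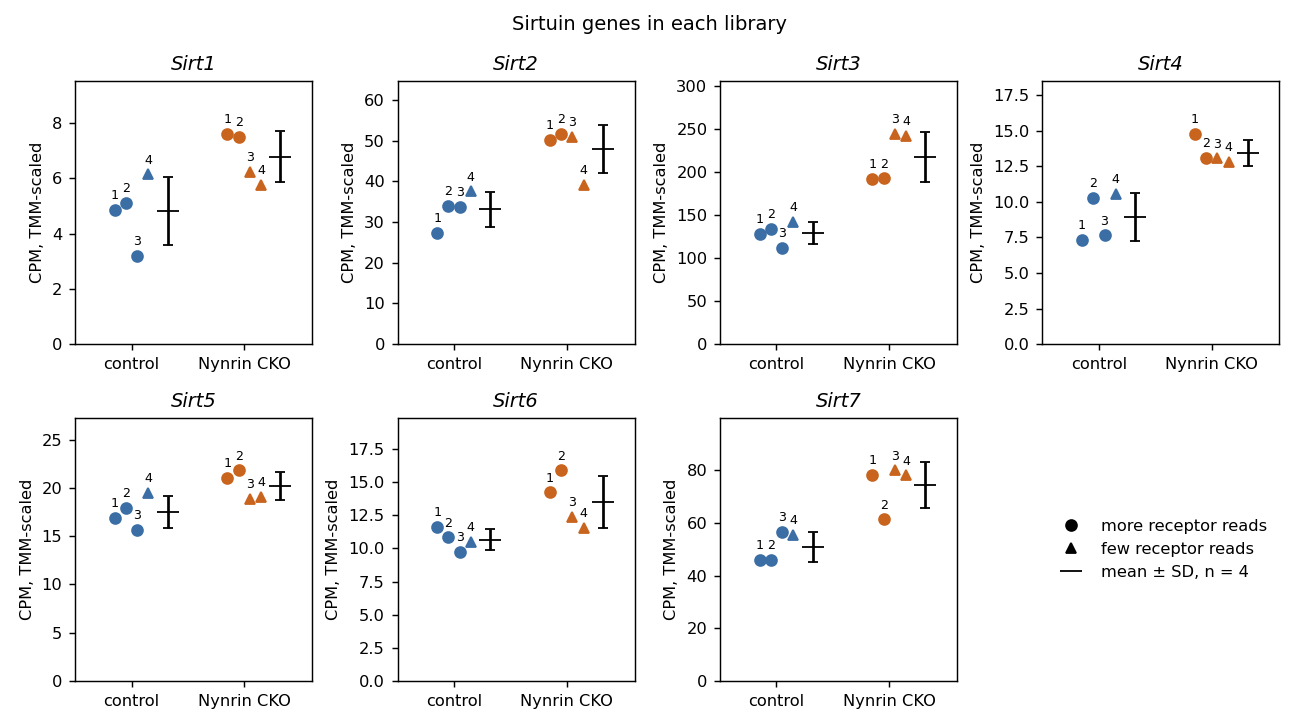
CPM (TMM-scaled, axes from 0) of each sirtuin gene in the 4 control and 4 Nynrin CKO libraries, numbered by replicate, with the mean and SD of each group beside the points. Circles are libraries with more receptor reads and triangles those with few. For Sirt2, Sirt3, Sirt4 and Sirt7 the groups do not overlap.

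The order of levels within the family was read per kb of exon length, since longer genes collect more reads. On that scale Sirt3 was highest in controls, at 21.6 ± 2.12 CPM per kb (SD, n = 4), followed by Sirt7 at 9.89 ± 1.13 and Sirt2 at 6.57 ± 0.85 CPM per kb. Sirt6 followed at 3.83 ± 0.28 CPM per kb, Sirt4 at 3.73 ± 0.71, Sirt5 at 2.87 ± 0.27 and Sirt1 at 0.91 ± 0.23 (SD, n = 4 each). Sirt6 and Sirt4 overlapped between control libraries, as did Sirt4 and Sirt5, and the other neighbours in this order did not. In Nynrin CKO Sirt4 had the higher mean of the Sirt6 and Sirt4 pair (5.6 ± 0.38 against 4.85 ± 0.70 CPM per kb, SD, n = 4), with overlapping libraries. Sirt3 made up 43.7% ± 2.32 of the family's summed CPM per kb in controls and 48.2% ± 4.10 in Nynrin CKO, and Sirt1 1.82% ± 0.36 and 1.7% ± 0.32 (SD, n = 4 each). Exon lengths of all annotated transcripts were merged. With the longest transcript alone, Sirt3 stayed highest in controls at 40.3 and Sirt1 lowest at 1.09 CPM per kb, while Sirt2 (15.6) and Sirt7 (15.6) came level and Sirt5 (7.22) moved above Sirt6 (5.63) and Sirt4 (4.99).

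**Figure D2:**
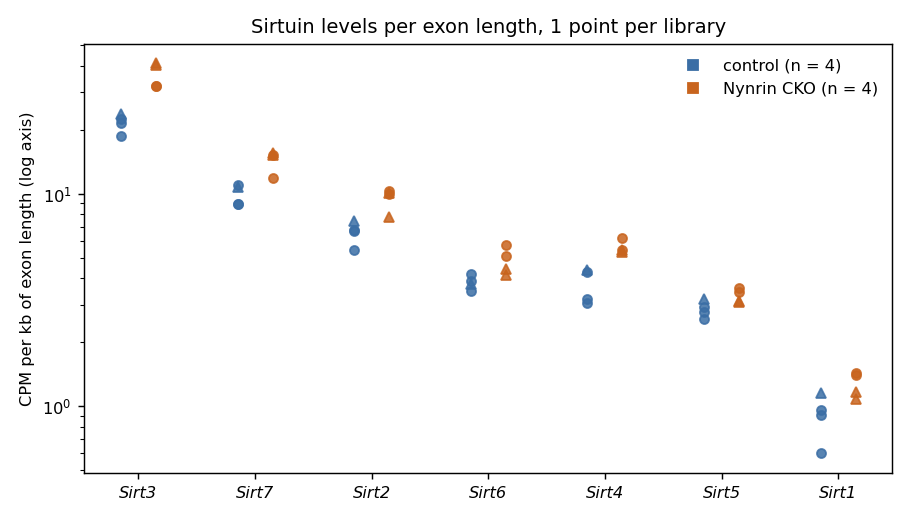
CPM per kb of merged exon length (log axis) of each sirtuin gene, 1 point per library, control on the left and Nynrin CKO on the right of each name. Sirt3 lies above every other member in every library, between 18.8 and 23.8 in controls and between 32.2 and 41.0 in Nynrin CKO, and Sirt1 lies lowest.

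Sirt3, the main deacetylase of the mitochondrial matrix, acts on enzymes of respiration, fatty acid oxidation and antioxidant defence. The gene (ENSMUSG00000025486) lies on chromosome 7 from 140863666 to 140882309 on the minus strand in mm10. Its level was 128, 134, 112 and 142 CPM in controls 1 to 4 and 193, 193, 245 and 242 CPM in Nynrin CKO 1 to 4. Every Nynrin CKO library was above every control, and Nynrin CKO 3 and 4 were higher than 1 and 2. Between 4769 and 7428 raw counts lay behind the control values and between 8685 and 11120 behind those of Nynrin CKO. Sirt3 rose 1.69-fold, from a mean of 129 ± 12.7 CPM in controls to 218 ± 29.4 CPM (SD, n = 4 in either group). This is a log2 fold change of 0.76 (SE, the standard error, 0.13) and passed in edgeR (adjusted p = 0.0382). A two-sided exact permutation test gave p = 0.0286, which is the lowest value possible with 4 against 4. Only 0.497% of tested genes had a smaller p, and 6.06% had a larger log2 fold change. The log2 fold change was 0.63 within the libraries with more receptor reads and 0.78 within those with few, where there is 1 control. The call was lost when control 1, 2 or 3 or any of the 4 Nynrin CKO libraries was left out, with log2 fold changes of 0.63 to 0.82 and edgeR adjusted p of 0.0545 to 0.206. In those 7 fits between 1 and 7 genes of the whole table were called, so that nearly every call was lost and not that of Sirt3 alone. Without control 4 it passed (edgeR adjusted p = 0.0254). Since Nynrin CKO 1 and 2 were much alike, as were 3 and 4, each pair was also summed and counted as 1 library. Sirt3 then stood at 0.70 (SE 0.19; edgeR adjusted p = 0.443), and no gene passed. With the trend over length and GC taken out it stood at 0.80 and did not pass (edgeR adjusted p = 0.249), in a fit with 4 calls in all.

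Sirt3 starts close to a gene on the other strand. Psmd13, a subunit of the proteasome lid, lies from 140881968 to 140898642 on the plus strand, and its record overlaps that of Sirt3 by 342 bases. In RefSeq (GRCm38.p6) the 2 genes start 85 bases apart, Sirt3 at 140882309 and Psmd13 at 140882394, and run away from each other. Psmd13 held 61.4% as many counts as Sirt3 over all libraries, and reads in the shared stretch can fall on either gene, since no source used here gives the strand setting of the counting. Sirt2 has a similar arrangement with Nfkbib, an inhibitor of NF-kB, which starts 108 bases away on the opposite strand with no overlap of the records in the table. The sequences between the paired starts are shown because both members of each pair were higher in all 4 Nynrin CKO libraries. Each runs 5′ to 3′ on the strand of the sirtuin and reaches 10 bases past each start base, from the RefSeq promoter windows. It therefore begins on the side of Psmd13 or Nfkbib and ends on the side of the sirtuin. The names before each sequence give the pair and not its direction. Capitals mark letters of the 4 motifs listed in the next paragraph.
Sirt3 to Psmd13, chr7:140882299-140882404, minus strand: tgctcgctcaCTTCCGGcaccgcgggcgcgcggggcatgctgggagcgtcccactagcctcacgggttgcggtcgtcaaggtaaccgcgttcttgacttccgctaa
Sirt2 to Nfkbib, chr7:28766634-28766762, plus strand: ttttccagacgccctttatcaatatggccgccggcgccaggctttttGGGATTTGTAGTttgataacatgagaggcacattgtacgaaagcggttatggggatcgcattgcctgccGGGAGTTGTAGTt

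The motifs were searched on both strands in the 300-base promoter windows of the RefSeq table, 32851 in number, and overlapping matches were counted. They were GGGCGG (GC box, in 35.7% of windows), CCGGAAG (core of ETS factor sites, in 8.86%), the NRF1 palindrome (GCGCAT followed directly by GCGC, in 0.971%) and the ZNF143 motif (ACTACA, any 2 bases, then TCCC, in 1.81%). The last was added after the sequences had been read. The 7 sirtuins had 9 windows, since Sirt3 and Sirt6 have 2 starts each. The ETS core was found once in a window of Sirt3, once in a window of Sirt6 and in 2 places for Sirt7. The NRF1 letters were found in 1 window of Sirt6. The ZNF143 letters stood in 2 places in the window of Sirt2 and in 2 places in that of Sirt4. The window of Sirt1 had 7 GC boxes and the highest GC content, 79.0%, while the window of Sirt7 was at 51.3%. None of the 9 windows held TATAAA. A match is a description of the letters and not a site.

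Psmd13 was at 81.9, 82.5, 94.0 and 103 CPM in controls and at 107, 109, 139 and 135 CPM in Nynrin CKO. The groups did not overlap, and its log2 fold change of 0.44 (standard error 0.13) did not pass (edgeR adjusted p = 0.0961). Ric8a, a chaperone of G protein alpha subunits whose record overlaps the other end of Sirt3 by 65 bases on the opposite strand, had a log2 fold change of 0.01 (edgeR adjusted p = 0.975), with overlapping groups. Nfkbib was at 21.1 to 29.5 CPM in controls and 31.6 to 36.0 CPM in Nynrin CKO, with a log2 fold change of 0.46 (edgeR adjusted p = 0.0813). Rinl, downstream of Sirt2, had a log2 fold change of 0.38 (edgeR adjusted p = 0.175). Beside Sirt7, the lipid synthesis gene Pcyt2 stood at 0.09 (edgeR adjusted p = 0.710), and beside Sirt1 and Sirt6 the genes Dnajc12 and Ankrd24 stood at 0.25 and -0.15 (edgeR adjusted p = 0.701 and 0.883). None of these 7 neighbours passed, and Psmd13, Nfkbib and Rinl had unadjusted p under 0.05.

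Sirt4 and Sirt5 are the other mitochondrial members. Sirt4 removes lipoyl and other acyl groups and restrains glutamate dehydrogenase. The gene (ENSMUSG00000029524) spans 115478010 to 115484725 on the minus strand of chromosome 5. Its level was 7.34, 10.3, 7.64 and 10.5 CPM in controls and 14.8, 13.1, 13.0 and 12.8 CPM in Nynrin CKO, so that the groups did not overlap. Its log2 fold change was 0.58 (SE 0.17), which did not pass (edgeR adjusted p = 0.0861; exact permutation p = 0.0286). It stood at 0.73 in the libraries with more receptor reads and at 0.29 in those with few, and was 0.36 with the length and GC trend taken out. DESeq2 and limma-voom called Sirt4, which edgeR did not. Over all genes DESeq2 called 1493 higher and 897 lower and limma-voom 1649 and 504, against 611 and 162 in edgeR.

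Sirt5, which removes succinyl, malonyl and glutaryl groups, had the smallest log2 fold change of the family. The gene (ENSMUSG00000054021) spans 43365496 to 43395202 on the plus strand of chromosome 13. Libraries were at 16.9, 18.0, 15.6 and 19.5 CPM in controls and at 21.1, 21.8, 18.8 and 19.1 CPM in Nynrin CKO. Nynrin CKO 1 and 2 were above every control, whereas 3 and 4 lay below control 4. The log2 fold change was 0.21 (SE 0.12), with an edgeR adjusted p of 0.417 and an exact permutation p of 0.0857. It was 0.35 within the libraries with more receptor reads and -0.04 within those with few. With total counts in place of TMM factors it was -0.05, so that its sign depended on the scaling, and with the length and GC trend taken out it was 0.08. Without control 3 it was also 0.08.

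Among the nuclear members, Sirt7, a deacylase of the nucleolus that binds RNA polymerase I, came nearest to the threshold. The gene (ENSMUSG00000025138) spans 120618372 to 120625014 on the minus strand of chromosome 11. Libraries were at 45.9, 46.0, 56.4 and 55.4 CPM in controls and at 78.1, 61.3, 79.9 and 78.0 CPM in Nynrin CKO. The groups did not overlap, and Nynrin CKO 2 was the lowest of its group. The log2 fold change was 0.55 (SE 0.13), with an edgeR adjusted p of 0.0515 and an exact permutation p of 0.0286. Both sets of libraries gave like values, 0.50 with more receptor reads and 0.51 with few. DESeq2 and limma-voom, which called more genes than edgeR over the whole table, called it, with adjusted p of 0.0283 and 0.0309.

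Sirt6 (ENSMUSG00000034748; chromosome 10, 81621785 to 81627797, minus strand), which acts on histone H3 at telomeres and at genes of glycolysis, was at 9.70 to 11.6 CPM in controls and at 14.2, 15.9, 12.4 and 11.5 CPM in Nynrin CKO 1 to 4. Nynrin CKO 4 lay inside the control range. Its log2 fold change was 0.34 (SE 0.15; edgeR adjusted p = 0.249), and 0.49 and 0.19 within the libraries with more and few receptor reads. For Sirt6 total counts gave 0.10, a fit without the length and GC trend 0.20 and a fit without control 3 0.23. Sirt1, the deacetylase of p53 and FOXO factors, was the member with the fewest reads. The gene (ENSMUSG00000020063) spans 63319005 to 63381704 on the minus strand of chromosome 10. Libraries were at 4.85, 5.12, 3.20 and 6.15 CPM in controls and at 7.62, 7.51, 6.24 and 5.77 CPM in Nynrin CKO. Control 3 was the lowest of all 8 libraries, and Nynrin CKO 4 lay below control 4. The log2 fold change was 0.49 (SE 0.23; edgeR adjusted p = 0.300). It was 0.79 within the libraries with more receptor reads, -0.04 within those with few, and 0.26 without control 3. Its lowest count, 136, carries a counting error of 8.58%.

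Sirt2 (ENSMUSG00000015149; chromosome 7, 28766735 to 28788660, plus strand), the tubulin and histone deacetylase of the cytosol, was at 27.3, 33.9, 33.7 and 37.5 CPM in controls and at 50.2, 51.7, 50.9 and 39.2 CPM in Nynrin CKO. The groups did not overlap, with Nynrin CKO 4 close to control 4. Its log2 fold change was 0.54 (SE 0.14), with an edgeR adjusted p of 0.0647 and an exact permutation p of 0.0286. It was 0.69 and 0.27 within the libraries with more and few receptor reads, and 0.28 with total counts. DESeq2 and limma-voom, which called more genes than edgeR over the whole table, called it, with adjusted p of 0.0344 and 0.0197.

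**Figure D3:**
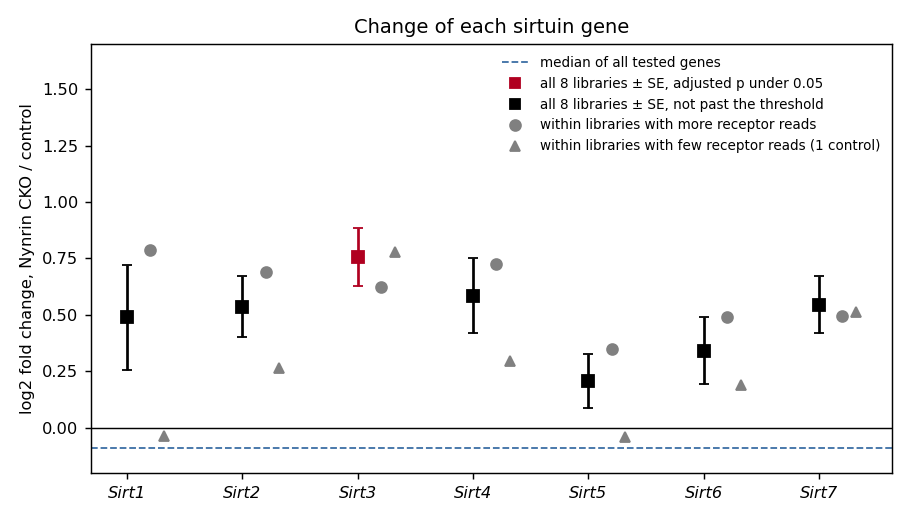
Log2 fold change of each sirtuin gene, Nynrin CKO over control, with its standard error from the fit of all 8 libraries (squares), and the values within the libraries with more (circles) and few (triangles) receptor reads. Sirt3 at 0.76 is the 1 member past the threshold, and Sirt3 and Sirt7 have like values in both sets of libraries, whereas Sirt1 and Sirt5 stand at -0.04 within the libraries with few.

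Whether the members changed by different amounts was tested with ratios of 2 sirtuins within a library, which do not depend on the scaling. None of the 21 pairs passed after adjustment over the 21 (smallest adjusted exact permutation p = 0.300), and 2 had an unadjusted exact permutation p under 0.05. With 4 against 4 libraries most of the 21 pairs would have had to reach the smallest possible p for any to pass, so this outcome says little about equal change. The log2 ratio of Sirt3 to Sirt5 was 2.88 ± 0.04 in the 4 controls and 3.43 ± 0.30 (SD) in the 4 Nynrin CKO libraries, a difference of 0.54 with groups that did not overlap (exact permutation p = 0.0286). The log2 ratio of Sirt4 to Sirt5 was -0.98 ± 0.18 in the 4 controls and -0.59 ± 0.10 (SD) in the 4 Nynrin CKO libraries, a difference of 0.39, likewise without overlap (exact permutation p = 0.0286). For Sirt3 against Sirt7, the pair with the most reads, the difference was 0.21, with overlapping groups (exact permutation p = 0.2).

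The level of the family moved with the scaling of the libraries. TMM factors were 1.04 to 1.16 in controls, 1.03 and 1.02 in Nynrin CKO 1 and 2 and 0.805 in both Nynrin CKO 3 and 4. With upper-quartile factors, RLE factors and total counts the log2 fold change of Sirt3 was 0.66, 0.71 and 0.47. The median of all tested genes was then -0.20, -0.14 and -0.34. Relative to that median Sirt3 stood at 0.85 with TMM, upper-quartile and RLE factors and at 0.81 with total counts. Subtracting the median takes out most of what a change of factors does, so these like values are no sign of stability. With total counts Sirt1, Sirt2, Sirt4 and Sirt7 stood at 0.25, 0.28, 0.33 and 0.27. Over all genes, 611 were called higher and 162 lower with TMM, against 225 and 251 with upper-quartile factors, 13 and 22 with RLE factors and 59 and 318 with total counts.

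**Figure D4:**
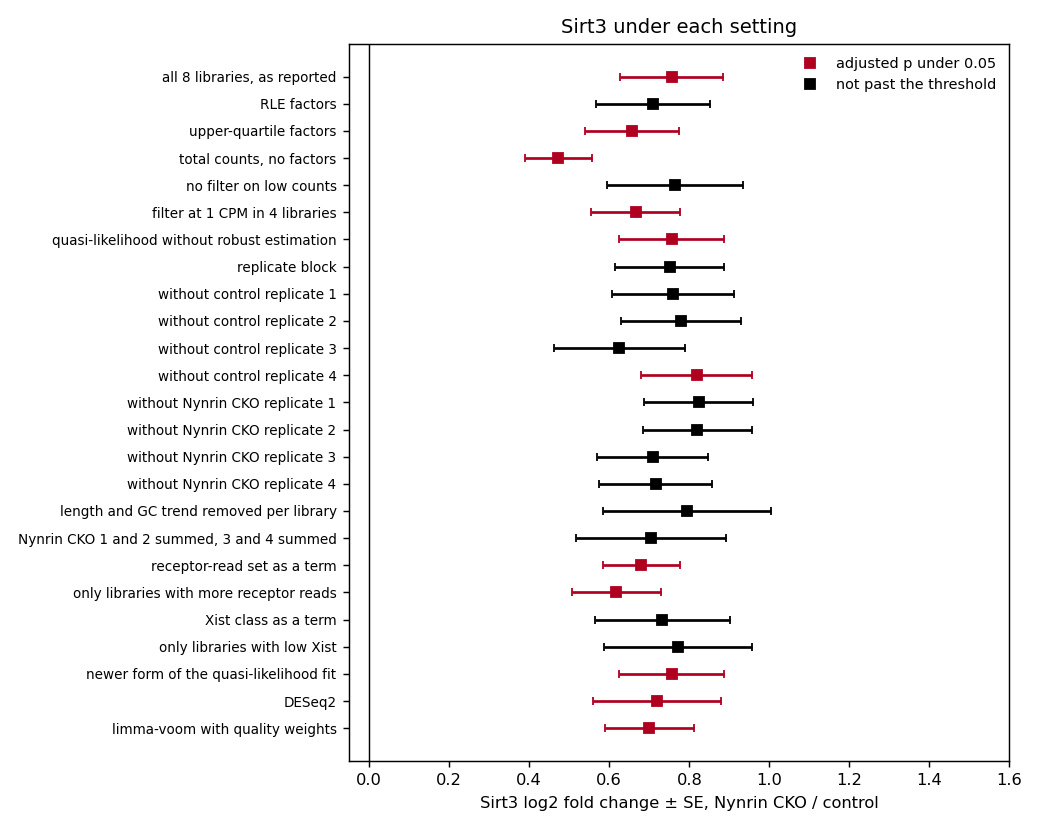
Sirt3 log2 fold change with its standard error in the fit reported and under 24 other settings, red where the adjusted p is under 0.05. The value stays between 0.47 and 0.82 in all of them, and 10 of the 24 pass the threshold.

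The profile of Sirt3 over the 8 libraries was compared with that of 9288 other genes with a mean of at least 10 CPM. Likeness was the root mean square distance of log2(CPM + 1) after each profile was centred on its mean. The 5 nearest were Nop53, a ribosome assembly factor (0.068), Tmem59 (0.069), Itm2b (0.072), the lymphoid GTPase gene Gimap6 (0.072) and Fcgrt, the receptor that recycles antibody (0.077). Each lay above every control in all 4 Nynrin CKO libraries, as 9.52% of tested genes did, with log2 fold changes of 0.65 to 0.79. The choice by likeness to Sirt3 over the same libraries all but fixed both, so they are no separate result. By the same measure the nearest sirtuin to Sirt3 was Sirt7 (0.21), and the closest pair in the family was Sirt5 and Sirt6 (0.12).

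NAD, the sirtuin cosubstrate, is made and recycled by a known set of enzymes. Of 21 tested genes listed under NAD supply, most of them of synthesis and salvage, 1 rose and none fell. Their median log2 fold change was 0.19, and 2.80% of all tested genes were called. A single call in a list of this size is near that share. The list also held Nadk and Nadk2, which turn NAD into NADP, Acmsd, which leads away from NAD, and the transport genes Slc25a51 and Slc12a8. None of these passed. The gene that rose was Pnp, a purine nucleoside phosphorylase that also splits nicotinamide riboside. It was at 138, 156, 132 and 154 CPM in controls and 202, 198, 218 and 215 CPM in Nynrin CKO (log2 fold change 0.52, standard error 0.10, edgeR adjusted p = 0.0408). The groups of Pnp did not overlap. Of 21 tested genes listed as NAD consumers other than sirtuins, 1 rose and 1 fell, with a median log2 fold change of 0.26. Over all tested genes 2.22% were called higher and 0.588% lower. The list also held Nnmt and Aox1, which do not use up NAD itself, and neither passed. Parp2, a polymerase of ADP-ribose that answers DNA breaks, rose from 49.2 to 68.6 CPM in controls to 80.7 to 95.3 CPM in Nynrin CKO (0.63, edgeR adjusted p = 0.0433). Parp4, the ADP-ribosyltransferase of vault particles, fell from 40.7 to 52.1 CPM to 20.1 to 32.6 CPM (-0.84, edgeR adjusted p = 0.0478).

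Transcripts of mitochondrial proteins on which sirtuins act were next. Of 24 tested, 4 rose and none fell, with a median log2 fold change of 0.20 and 17 positive values. Over all tested genes 2.22% were called higher and 44.5% were positive, and among those averaging 1 CPM or more 3.64% and 57.1%. These 4 were Ppif (0.75), the succinate dehydrogenase subunit Sdhb (0.81), the ATP synthase subunit Atp5o (0.62) and the fatty acid oxidation enzyme Acadl (0.69), with edgeR adjusted p of 0.0345 to 0.0447. Their proteins are reported substrates or binding partners of Sirt3. No member of this list passed with RLE factors, total counts, no filter on low counts or the length and GC trend removed. Like the other lists, it was chosen with earlier results of these data known. Sod2, the mitochondrial superoxide dismutase that Sirt3 activates, was at 106 to 122 CPM in controls and 109 to 117 CPM in Nynrin CKO. Its log2 fold change was -0.01 (SE 0.09). A transcript level does not show how far a protein is acetylated.

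Of 31 tested nuclear and cytosolic substrates, regulators and partners none passed in edgeR, with a median log2 fold change of 0.27. An unadjusted p under 0.05 was found for 7, and for 18.9% of all tested genes, which is near the share in this list. DESeq2 called 1 and limma-voom 2, in fits with more calls over the whole table than edgeR. The smallest p were those of Polr1a, the largest subunit of RNA polymerase I (-0.47, edgeR adjusted p = 0.0535), and of the histone demethylase Kdm1a (0.57, edgeR adjusted p = 0.0826). Cdkn1a, the cell cycle inhibitor p21, chosen after its values were seen, had 84.9 and 90.1 CPM in Nynrin CKO 3 and 4. Nynrin CKO 1 and 2, with 11.1 and 10.1 CPM, were within the control range of 7.66 to 17.6 CPM.

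The other protein deacetylases gave no call. None of the 11 zinc-dependent enzymes passed in edgeR, their median was 0.01, and 2 had an unadjusted p under 0.05 (18.9% of all tested genes did), Hdac1 (0.51, edgeR adjusted p = 0.0971) and Hdac5 (-0.53, edgeR adjusted p = 0.148). DESeq2 called 1 of them and limma-voom none, though both called more genes than edgeR over the whole table. Of 14 genes listed as acetyltransferases, most of which put acetyl groups on lysines, none passed in edgeR. DESeq2 and limma-voom, with more calls over the whole table, each called 2. The list also held Naa10, known mainly for acting on protein N-termini, and Acat1, known mainly as a thiolase. Both had an unadjusted edgeR p under 0.05. An unadjusted p under 0.05 was found for 8 of the 14, in both directions, a larger share than the 18.9% of all tested genes. In 7 of the 14 the groups did not overlap, against 14.3% of all tested genes. The median of the acetyltransferases was 0.27, with Kat5 at 0.51 and Acat1 at 0.36 (edgeR adjusted p = 0.0625 and 0.0966).

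In the lists tied to Sirt7 and Sirt2 single genes passed, again near the 2.80% of all tested genes. Of 15 genes of the mitochondrial protein-folding stress response 1 rose and none fell (median 0.27). It was Ddit3, the transcription factor CHOP, at 10.6 to 16.5 CPM in controls and 20.1 to 24.8 CPM in Nynrin CKO (0.72, edgeR adjusted p = 0.0478). Of 13 genes of the NLRP3 inflammasome 1 rose and none fell (median 0.18). It was Casp1, the protease that matures interleukin 1 beta, at 56.4 to 67.3 CPM in controls and 96.4 to 116 CPM in Nynrin CKO (0.75, edgeR adjusted p = 0.0345). Nlrp3 itself was near the limit of detection, with a mean of 0.71 CPM in controls. With control 1, 2 or 3 or any Nynrin CKO library left out, no member of the 8 lists passed in edgeR, whereas without control 4 the mitochondrial substrates had 6 calls. Medians of the log2 fold change of the 8 lists lay between 0.01 and 0.27, where that of the sirtuins was 0.54, and the difference was not tested. With total counts 7 of these medians turned to between -0.09 and -0.01 and that of the zinc-dependent deacetylases to -0.30, while that of the sirtuins was 0.27. Without control 3 the inflammasome median was 0.01, that of the mitochondrial substrates 0.10, and those of NAD consumers, nuclear partners and acetyltransferases 0.15, 0.17 and 0.17. Without Nynrin CKO 3 nuclear partners and acetyltransferases stood at 0.16 and 0.17 and the inflammasome at 0.27. The inflammasome stood at 0.07 without control 4 and at 0.11 without Nynrin CKO 2, and NAD supply at 0.29 without Nynrin CKO 4.

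**Figure D5:**
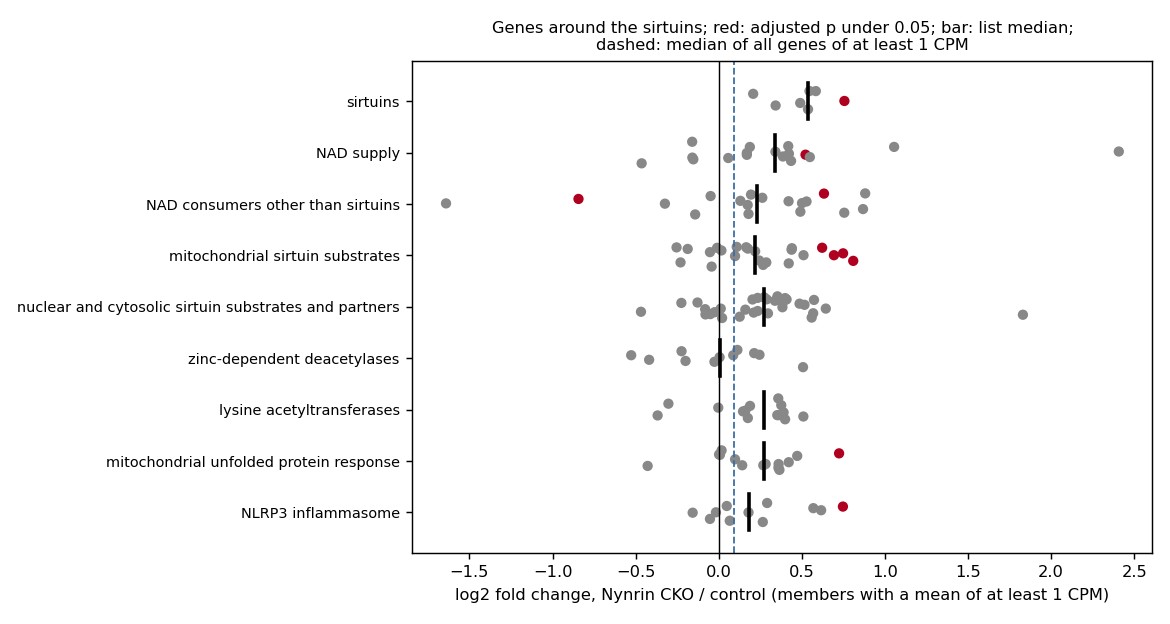
Log2 fold change, Nynrin CKO over control, of every gene averaging 1 CPM or more in the sirtuin family and in 8 lists around it. Red points passed the threshold, bars are list medians over the members shown, and the dashed line is the median of all genes of at least 1 CPM (0.09). The sirtuin median is 0.54, and that of the zinc-dependent deacetylases is 0.01.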

How the data were processed

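What the authors deposited are unnormalized whole-number counts of reads per gene for each library, per the file headers. The genome build is mm10, as named in the submitters' processing notes. No aligner, counting program or strand setting is given in the sources used here. Counts were tested over the whole table with edgeR 4.0.16 in R 4.3.3: filterByExpr (27573 of 55401 genes kept), TMM factors and a robust quasi-likelihood F-test of 4 Nynrin CKO against 4 control libraries. CPM values use the same factors. Standard errors are the log2 fold change divided by the square root of F. Single genes were also compared by two-sided exact permutation of log2(CPM + 1) over 70 assignments. When tested on simulated data for these 27573 genes and this comparison, the fit found 31 of the 100 genes set to change 2-fold, 70 of the 100 set to change 4-fold and 14 false ones. Exon lengths and GC content came from the GENCODE annotation and promoter windows from RefSeq (GRCm38.p6), which held all 7 sirtuins.

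Values within the libraries with more or few receptor reads, divided at 300 CPM, were contrasts from 1 fit with a mean for every combination of genotype and set. In it control 4 is assumed to vary like the others. Alternatives were other scaling factors, other filters, DESeq2 1.42.0, limma-voom (limma 3.58.1), a replicate block, removal of each library, a length and GC trend, sums of similar libraries and terms or subsets for receptor reads and for Xist (divided at 100 CPM).

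The members, lists and alternatives were chosen with earlier results of these data known. All sirtuins were named, with up to 4 passing members of each list by smallest p, or the 2 with the smallest p where none passed. For Atp5o and Ddit3, which have 2 records each, the record with nearly all counts was used. Totals of 36942835 to 56437299 counts per library limit the precision of Sirt1 most, whose lowest count was 136.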

Additional observations from a re-analysis of the deposited data

Results flagged for a closer look

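In 3 of the 14 groups of 4 libraries checked, 1 library stood far from the others by the gap relative to the range (Dixon's 95% critical value), which chance alone gives in about 1 group of 20. Sirt2 in Nynrin CKO 4 was at 39.2 CPM, the lowest of its group, with the other 3 at 50.2 to 51.7 CPM. Sirt4 in Nynrin CKO 1 was at 14.8 CPM, the highest, with the other 3 at 12.8 to 13.1 CPM. Sirt7 in Nynrin CKO 2 was at 61.3 CPM, the lowest, with the other 3 at 78.0 to 79.9 CPM. All 3 values lay above every control.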

How the results depend on the processing

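Sirt3 had a positive log2 fold change under all 24 alternatives (0.47 to 0.82), with adjusted p from 0.000501 to 0.443, and passed in 10. It lost the call with RLE factors (0.71), no filter on low counts (0.77), a trend on length and GC removed (0.80), the similar Nynrin CKO libraries summed (0.70), Xist class as a term (0.73) and only the libraries with low Xist (0.77). With the replicate block it was 0.75 and did not pass. Whether the replicate numbers pair the libraries cannot be decided here. Correlations of same-numbered libraries, over deviations from the group means, were 0.15, 0.13, -0.13 and 0.28. Those of differently numbered libraries ranged from -0.28 to 0.27. For controls 1, 2 and 4 the same-numbered library gave the highest value, and for control 3 it did not. Without 1 library each the log2 fold change of Sirt3 ranged from 0.63 to 0.82. The number of sirtuins past the threshold was 1 as reported. It was 0 with RLE factors, no filter, the length and GC trend removed, summed libraries, the Xist term, the low Xist subset and the replicate block, under which no gene at all passed (5144 at an unadjusted p under 0.05). It was 2 with the receptor-read term, in the libraries with more receptor reads alone (Sirt2 and Sirt3) and with the newer quasi-likelihood fit, chosen after seeing the data, and 4 (Sirt2, Sirt3, Sirt4 and Sirt7) with DESeq2 and with limma-voom. All of these fits called more genes over the whole table than the 611 higher and 162 lower reported. In the order given they called 1221 and 408, 1311 and 857, 822 and 290, 1493 and 897, and 1649 and 504. Without 1 library each it was 0 to 2. The cause of these losses and gains was not tested. Sirt5 turned to -0.046 with total counts. Sirt1, Sirt5 and Sirt6 passed under none of the alternatives. Members past the threshold ranged from 0 to 7 among NAD consumers (2 as reported), 0 to 3 in NAD supply (1), 0 to 6 among mitochondrial substrates (4), 0 to 5 in the mitochondrial stress response (1), 0 to 2 in the inflammasome (1), among nuclear and cytosolic partners (0) and among acetyltransferases (0), and 0 to 1 among zinc-dependent deacetylases (0). Ratios with 1 library left out were not tested. Their differences moved by less than the larger of the SDs of the control and Nynrin CKO groups. Medians of all 8 lists turned negative with total counts.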

Other observations

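Several genes of NAD metabolism, picked after their values were seen, divided the Nynrin CKO libraries into 1 and 2 against 3 and 4, the same pairs that were close to each other over all genes. For Nampt, the rate-limiting enzyme of NAD salvage, Nynrin CKO 1 and 2 had 117 and 118 CPM, above the control range of 47.9 to 64.4, while 3 and 4 had 55.3 and 53.4 CPM (log2 fold change over all 8 libraries 0.55, edgeR adjusted p = 0.335). Haao, an enzyme of NAD synthesis from tryptophan, had 75.3 and 79.7 CPM in Nynrin CKO 3 and 4. Its values of 27.7 and 26.5 CPM in Nynrin CKO 1 and 2 lay within the control range of 22.3 to 28.9 CPM. Kmo, an earlier step of that route, had 12 and 10.3 CPM in Nynrin CKO 3 and 4 and 2.50 and 2.56 CPM in Nynrin CKO 1 and 2, all above the controls (0.65 to 1.74 CPM). Its log2 fold change of 2.41 did not pass (edgeR adjusted p = 0.0618). Parp1, the most abundant ADP-ribose polymerase, followed the pattern of Haao, with 638 and 607 CPM in Nynrin CKO 3 and 4, 335 and 336 CPM in Nynrin CKO 1 and 2 and a control range of 298 to 422 CPM. None of these 4 genes passed the test between the groups.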
